A study of Drosophila melanogaster with 18 samples.

Results

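Apical-basal polarity genes of the Drosophila egg chamber were followed through gain and loss of 2 signalling pathways. The genes were crb, baz, par-6, aPKC, scrib, dlg1, l(2)gl and par-1, and the values used were those of every probe set that the platform annotation assigns to 1 of these 8 genes and to no other gene. This gave 12 probe sets, 3 of them for par-1, 2 each for scrib and dlg1 and 1 for each of the other genes, of 13966 probe sets and 10826 named genes on the array. No probe set of these genes passed the test in any of 8 comparisons between groups. In a further one, an average over the 4 perturbations added after the values had been seen, par-1 141645_at alone passed. For 8 of the 12 a difference of 1.29- to 1.44-fold between EGFR gain and wild type would have been called, and for the other 4 a much larger one was needed.

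The RNA was that of egg chambers dissected by hand at stages 9 to 10, which hold a germline cyst of nurse cells and oocyte inside an epithelium of somatic follicle cells. Each array carried RNA of 100 egg chambers and each genotype was given 3 arrays, for which chambers sorted from other stages were divided into 3 equal lots. The spread between arrays therefore may be partly technical, and the p-values measure that spread. The females were 6 to 8 days old and had been kept on yeast at 23 °C for 24 h.

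The EGFR gain group had the genotype CY2-GAL4, UAS-lambda-Top, in which an activated form of the epidermal growth factor receptor is driven. The EGFR loss group had the genotype CY2-GAL4, UAS-dnEGFR, with a dominant negative receptor. The BMP gain group had the genotype CY2-GAL4, UAS-tkv*, with an activated receptor, Tkv, of the bone morphogenetic protein pathway, and the BMP loss group had CY2-GAL4, UAS-Dad, with the inhibitory Smad Dad. Wild type A and wild type B were both OreR. The EGFR gain, EGFR loss, BMP gain and wild type A arrays were processed side by side in a first hybridization round, and the BMP loss and wild type B arrays in a second. All 4 perturbed groups carried the driver CY2-GAL4 and neither wild type did, so strain background and driver cannot be told apart from the pathway in a comparison with wild type. The driver acts in follicle cells while the RNA was of whole chambers, and the polarity genes are also used by the oocyte. The germline share of their RNA was not measured, and fewer cells of a type and less RNA per cell cannot be told apart in such samples.

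Epithelial cells keep an apical and a basolateral side through proteins that exclude each other from their own territory. The transmembrane protein Crumbs marks the apical side, the scaffold Bazooka with Par-6 and the kinase aPKC works at and above the adherens junctions, and Scribble, Discs large and Lethal (2) giant larvae hold the lateral side. The kinase Par-1 acts on the basolateral side and phosphorylates Bazooka, while aPKC phosphorylates Par-1 and Lethal (2) giant larvae. In the follicular epithelium loss of lateral members such as dlg1 makes cells pile up in layers, and in the oocyte Par-1 and the Bazooka group occupy different parts of the cortex.

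The array checks bore on the whole series. Arrays of a group correlated at 0.958 to 0.970 (Spearman, over all probe sets) and no 2 arrays were identical. Array medians were 4.44 to 4.51 on the log2 scale in the first round and 4.02 to 4.04 in the second, so levels are compared within a round only. On 1 probe set each, the driven genes followed the labels in EGFR gain, BMP gain and BMP loss. Egfr rose in EGFR gain by 1.87 on probe set 142966_at (limma adjusted p = 2.69e-05), tkv rose in BMP gain by 1.81 on 143377_at (6.61e-05) and Dad rose in BMP loss by 4.39 (0.0031). The second probe set of Egfr and of tkv differed by only -0.12 and 0.16 in these groups, and the reason was not tested. That tkv probe set, 154370_at, was called lower in EGFR loss, where tkv is not driven, at -0.98 ± 0.10 (limma adjusted p = 9.56e-05). The other, 143377_at, was -0.40 there and was not called (0.265). The dominant negative receptor gave no called Egfr difference in EGFR loss, where the values were -0.32 and 0.03, so that label has no check of this kind. The tissue carried its own markers. The 8 follicle cell markers averaged 9.56 to 9.88 on the perturbed and wild type arrays of the first round, the 6 germline marker probe sets averaged 7.73 to 8.42 there, and the average of the 3 neuron probe sets did not exceed 1.30. Of the follicle cell markers, slbo and Femcoat stayed under the median of all values, 4.33. Their first-round group means were 3.41 to 3.62 and 0.50 to 2.63. In EGFR loss the muscle markers averaged 4.33 to 4.52, against 3.46 to 3.70 in wild type A, and the fat body markers averaged 3.76 to 4.96, against 2.78 to 3.34 in wild type A, with 2 of 6 probe sets of each list called higher. In the same group 3 of the 8 follicle cell markers were called lower. These were the yolk protein genes Yp1, Yp2 and Yp3, at -0.52, -0.44 and -0.62 (limma adjusted p of 0.000247, 0.00233 and 6.63e-05), and the germline marker osk was lower too, at -0.55 (0.0218). In each other perturbed group 1 follicle cell marker was called, at -0.51 for psd in EGFR gain, 0.65 for Yp3 in BMP gain and -0.44 for Yp1 in BMP loss, and the germline marker bam was called in EGFR gain (-0.81) and BMP gain (2.05). RNA quality set 1 array apart: the 3′ minus 5′ difference of the actin control was 2.89 in EGFR loss replicate 3, against 0.85 to 1.63 on the 17 other arrays. The same difference for GAPDH was 2.68 there and 2.19 and 2.45 in EGFR gain replicates 1 and 3, against at most 2.07 in wild type A. The part of these features in the values below was not tested beyond the refits given beside them.

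**Figure D1:**
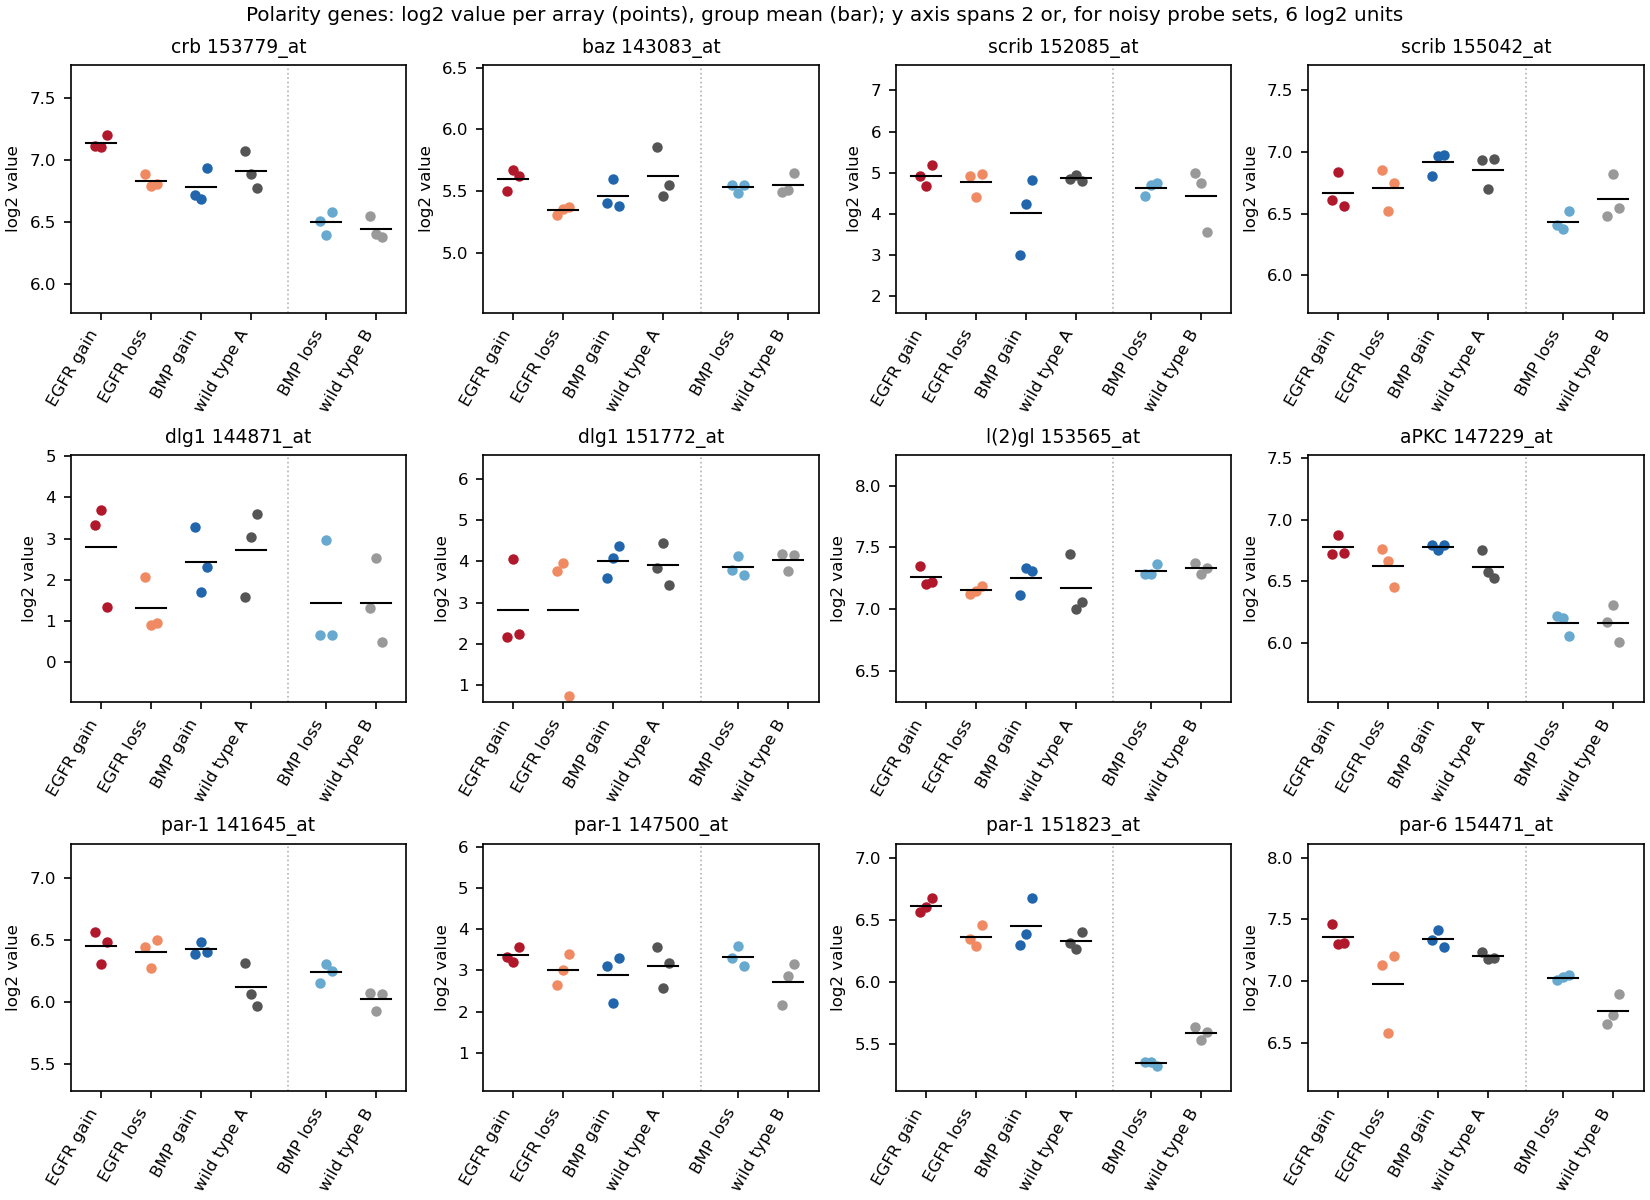
Log2 value (vertical axis, its span differing between panels) of each of the 12 polarity probe sets on every array, with groups along the horizontal axis, points for the 3 arrays of a group, a bar for their mean and a dotted line between the hybridization rounds. The arrays of par-1 141645_at lie between 6.28 and 6.57 in the 3 perturbed groups of the first round and between 5.97 and 6.32 in wild type A, while the arrays of dlg1 144871_at scatter from 0.90 to 3.70 in the same round.

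The 12 probe sets divided into bright ones with a small spread and dim ones with a large spread. The brighter class was set at a highest group mean of at least 4.33, the median of all values in the table, and held 9 of the 12. Both dlg1 probe sets and par-1 147500_at stayed under it. Of the brighter 9, 8 had a pooled standard deviation (SD) between arrays of a group of 0.10 to 0.16, against a median of 0.29 over all probe sets. The exception was scrib 152085_at, with 0.53. Among the dim probe sets the SD was 1.05 and 0.91 for the dlg1 pair and 0.43 for par-1 147500_at. This spread sets what the test could find: in the comparison of EGFR gain with wild type A, a 1.29- to 3.16-fold difference would have been called for the brighter 9, and 2.55- to 9.67-fold was needed for the dim 3.

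**Figure D2:**
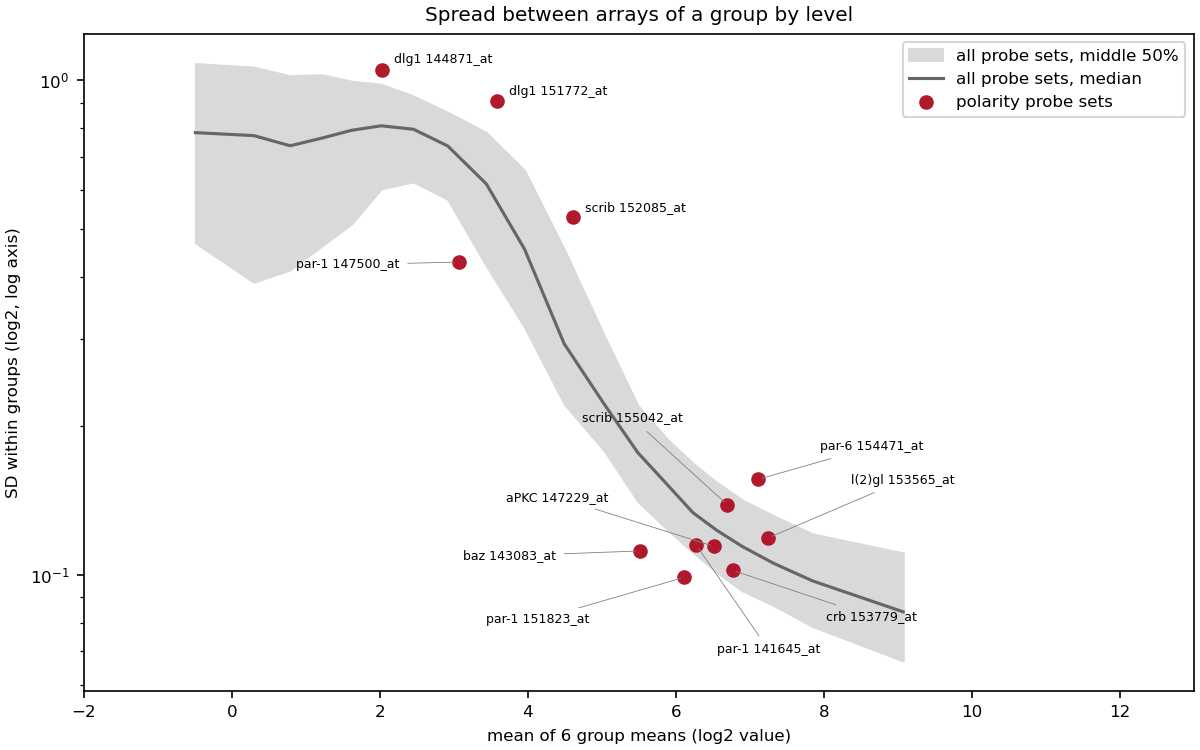
Pooled SD between arrays of a group (vertical, log axis) against the mean of the 6 group means on the log2 scale (horizontal). The line and band give the median and the middle 50% of all probe sets in 20 bins of level, and red points are the polarity probe sets. The polarity points below a level of 5 have SDs from 0.43 to 1.05 and the others from 0.10 to 0.16.

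Crumbs, coded by crb, is the apical determinant that recruits a scaffold complex under the apical membrane. Its probe set read 7.11, 7.11 and 7.21 in EGFR gain, 6.89, 6.79 and 6.81 in EGFR loss, 6.72, 6.69 and 6.93 in BMP gain, and 7.07, 6.89 and 6.78 in wild type A. The EGFR gain arrays were the 3 highest of the round, and those of the other groups overlapped with wild type A. The difference between EGFR gain and wild type A was 0.23 ± 0.09 (standard error, SE), or 1.17-fold with a 95% interval of 1.02 to 1.35, and it missed the threshold after adjustment over all probe sets (limma adjusted p = 0.281). EGFR gain stood 0.31 ± 0.09 above EGFR loss (limma adjusted p = 0.128) and 0.36 ± 0.09 above BMP gain (0.103), which was the lowest adjusted p of any polarity probe set in the 8 comparisons. The last difference passed under 3 other settings, and the one with EGFR loss under 1 (lowest adjusted p of 0.0309 and 0.0452). With EGFR gain replicates 1 and 3 and EGFR loss replicate 3 left out, which leaves 1 EGFR gain array, they were 0.33 and 0.26 and did not pass (0.462 and 0.651). In the second round crb read 6.51, 6.40 and 6.58 in BMP loss, against 6.55, 6.40 and 6.38 in wild type B. These arrays overlapped, and the interval of the ratio was 0.90- to 1.19-fold.

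Bazooka, the scaffold coded by baz that anchors Par-6 and aPKC, read 5.50, 5.67 and 5.62 in EGFR gain, 5.31, 5.36 and 5.37 in EGFR loss, 5.41, 5.60 and 5.39 in BMP gain, and 5.86, 5.46 and 5.55 in wild type A. Every EGFR loss array lay under every wild type A array, by a mean of -0.28 ± 0.10 (0.83-fold, interval 0.71 to 0.96, limma adjusted p = 0.18). Wild type A replicate 1 carried part of that distance, since the difference was -0.16 without it. EGFR gain and BMP gain overlapped with wild type A, at -0.02 and -0.16. BMP loss read 5.55, 5.48 and 5.55, against 5.50, 5.51 and 5.64 in wild type B, and the groups overlapped with an interval of 0.85- to 1.15-fold.

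Par-6, the adaptor that joins aPKC to its partners, read 7.46, 7.30 and 7.31 in EGFR gain, 7.13, 6.58 and 7.21 in EGFR loss, 7.33, 7.41 and 7.28 in BMP gain, and 7.24, 7.18 and 7.19 in wild type A. EGFR gain and BMP gain were each above wild type A on all arrays, by a mean of 0.15 and 0.14, and EGFR loss overlapped with it at -0.23. None of these passed (limma adjusted p of 0.697, 0.814 and 0.409). The low EGFR loss array, replicate 2, set that group apart: without it the EGFR loss difference from wild type A was -0.03 and the EGFR gain minus EGFR loss difference was 0.19 in place of 0.38. BMP loss read 7.01, 7.03 and 7.05, against 6.65, 6.72 and 6.90 in wild type B. The groups did not overlap, and the difference of 0.27 ± 0.13 did not pass (1.21-fold, interval 0.99 to 1.47, limma adjusted p = 0.399).

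The kinase aPKC read 6.72, 6.88 and 6.73 in EGFR gain, 6.76, 6.66 and 6.45 in EGFR loss, 6.79, 6.75 and 6.80 in BMP gain, and 6.75, 6.57 and 6.53 in wild type A. All 3 perturbed groups overlapped with wild type A, at differences of 0.16, 0.01 and 0.16 with intervals that together ran from 0.86- to 1.30-fold. BMP loss read 6.22, 6.20 and 6.06, against 6.17, 6.31 and 6.01 in wild type B. Both groups had a mean of 6.16, and the interval of their ratio was 0.86- to 1.16-fold.

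Of the lateral genes, l(2)gl codes for a protein that aPKC removes from the apical side. It read 7.35, 7.20 and 7.22 in EGFR gain, 7.12, 7.15 and 7.19 in EGFR loss, 7.11, 7.33 and 7.31 in BMP gain, and 7.45, 7.00 and 7.06 in wild type A. Wild type A itself spanned the range of the other groups, so all overlapped with it. BMP loss read 7.28, 7.28 and 7.37, against 7.37, 7.29 and 7.34 in wild type B, also overlapping. The differences from wild type were 0.09, -0.01, 0.08 and -0.02 for EGFR gain, EGFR loss, BMP gain and BMP loss, with intervals that reached no further than 0.84- and 1.24-fold.

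The scaffold gene scrib had 2 probe sets that differed in brightness and spread. Probe set 155042_at read 6.61, 6.83 and 6.56 in EGFR gain, 6.85, 6.52 and 6.75 in EGFR loss, 6.80, 6.97 and 6.97 in BMP gain, and 6.93, 6.70 and 6.94 in wild type A. Each group overlapped with wild type A, and the differences were -0.19, -0.15 and 0.06. BMP loss read 6.40, 6.38 and 6.52, against 6.48, 6.82 and 6.55 in wild type B, a difference of -0.18 with an interval of 0.74- to 1.05-fold. The noisier 152085_at read 3.00, 4.25 and 4.83 in BMP gain, against 4.86, 4.95 and 4.80 in wild type A, so 1 array gave much of the difference of -0.84 (limma adjusted p = 0.478). Without BMP gain replicate 1 that difference was -0.33, and 155042_at, with 0.06, did not share its sign. The EGFR gain, EGFR loss and BMP loss differences of 152085_at were 0.05, -0.10 and 0.21.

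Discs large, coded by dlg1, is a membrane-associated guanylate kinase scaffold of the lateral side. Its probe set 151772_at read 2.16, 4.07 and 2.24 in EGFR gain, 3.77, 3.97 and 0.75 in EGFR loss, 3.61, 4.07 and 4.37 in BMP gain, and 3.85, 4.45 and 3.43 in wild type A. The arrays far under the rest were EGFR gain replicates 1 and 3 and EGFR loss replicate 3, the same 3 that had the highest GAPDH 3′ minus 5′ differences. The difference from wild type A was -1.09 in EGFR gain and -1.08 in EGFR loss, and was 0.16 and -0.04 with these arrays left out, which leaves 1 EGFR gain array. The arrays left out are also the lowest ones on this probe set, so smaller differences had to follow. The part of RNA quality in these values was not tested. Probe set 144871_at ranged from 0.90 to 3.70 in the first round and from 0.48 to 2.97 in the second, and its difference was -1.42 in EGFR loss and between -0.30 and 0.06 in the other groups. At this spread a dlg1 difference under 7.13-fold in EGFR gain or 6.90-fold in EGFR loss would not have been called on either probe set.

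The basolateral kinase gene par-1 came closest to the threshold against wild type. Its probe set 141645_at read 6.57, 6.31 and 6.48 in EGFR gain, 6.45, 6.28 and 6.50 in EGFR loss, 6.39, 6.49 and 6.40 in BMP gain, and 6.32, 6.07 and 5.97 in wild type A. BMP loss read 6.16, 6.31 and 6.25, against 6.07, 5.93 and 6.07 in wild type B. BMP gain and BMP loss lay above their wild type on all arrays, whereas the lowest arrays of EGFR gain and EGFR loss lay under the highest wild type A array.

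The 4 differences of par-1 141645_at were all positive and of like size. They were 0.34 ± 0.10 in EGFR gain (1.26-fold, interval 1.08 to 1.47, limma adjusted p = 0.12), 0.29 ± 0.10 in EGFR loss (0.166), 0.31 ± 0.10 in BMP gain (0.189) and 0.22 ± 0.10 in BMP loss (0.389). The first 3 share the wild type A arrays, so their likeness is not independent. Leaving out wild type A replicate 1, the highest wild type array, gave 0.44 in EGFR gain, which passed (limma adjusted p = 0.0476). Without EGFR gain replicates 1 and 3 and EGFR loss replicate 3 it was 0.19 (0.714). Averaged over the 4 perturbations, a comparison added after the values had been seen, par-1 141645_at differed from wild type by 0.29 ± 0.07 (limma adjusted p = 0.0256), in a comparison that called 4.85% of all probe sets and 0 of the other 11 polarity probe sets. That average missed the threshold without wild type A replicate 2 (0.116) or replicate 3 (0.156). It also missed it without EGFR gain replicates 1 and 3 and EGFR loss replicate 3, at 0.24 (0.0987).

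The other par-1 probe sets did not follow it in every group. Probe set 151823_at read 6.56, 6.61 and 6.68 in EGFR gain, 6.35, 6.29 and 6.46 in EGFR loss, 6.30, 6.39 and 6.68 in BMP gain, and 6.31, 6.27 and 6.40 in wild type A. Only EGFR gain stood clear of wild type A on all arrays, at 0.29 ± 0.09 (limma adjusted p = 0.141). BMP loss read 5.35, 5.36 and 5.32, against 5.63, 5.53 and 5.60 in wild type B, so every BMP loss array was lower, by a mean of -0.24 ± 0.09 (0.84-fold, interval 0.74 to 0.97, limma adjusted p = 0.247). In BMP loss the signs of the 2 bright par-1 probe sets were thus opposite, with 141645_at at 0.22. The dim 147500_at differed from wild type by 0.26, -0.09, -0.23 and 0.60 in EGFR gain, EGFR loss, BMP gain and BMP loss, and overlapped in all 4. The files do not say which par-1 transcripts each probe set reads.

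**Figure D3:**
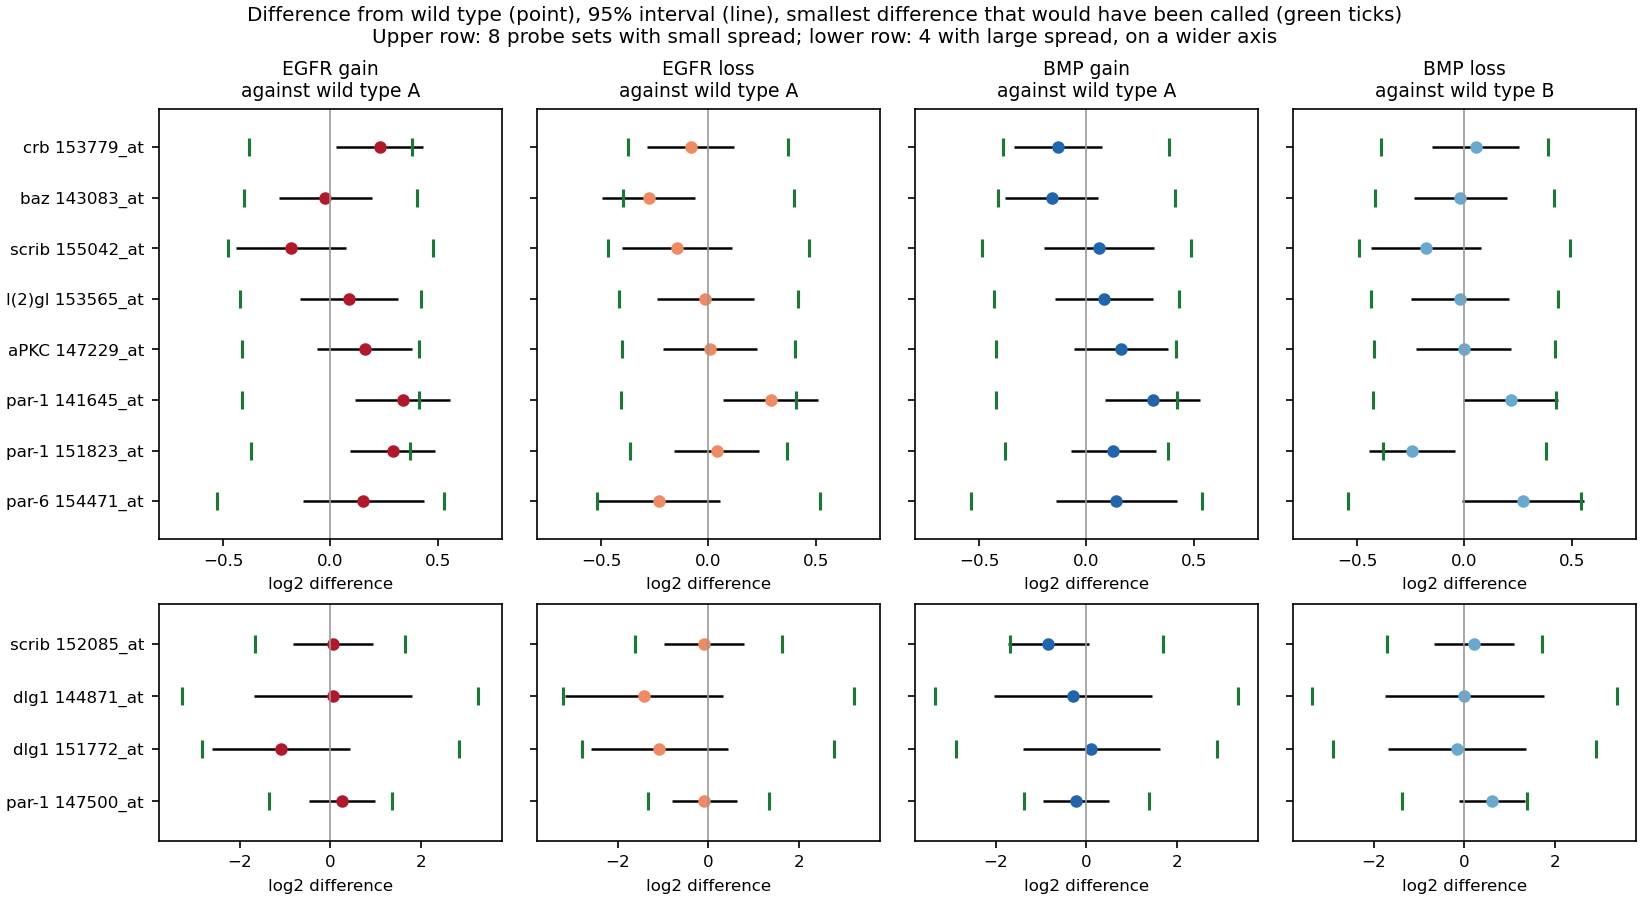
Log2 difference of each polarity probe set (rows) from the wild type of its round, 1 panel per perturbation and row block, with 95% interval as a line and the smallest difference that would have been called as green ticks. The upper block holds the 8 probe sets with small spread and the lower block the 4 with large spread on a wider axis. No point lies beyond its ticks, and par-1 141645_at is right of 0 in all 4 panels.

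By comparison, 0 of 12 polarity probe sets were called at an adjusted p under 0.05 in EGFR gain, where 2.81% of all 13966 were called. The count was also 0 in EGFR loss, where 3.17% of all were called, in BMP gain (2.39%) and in BMP loss (2.29%). At an unadjusted p under 0.05 the polarity genes gave 3 of 12 probe sets in EGFR gain, 2 in EGFR loss, 1 in BMP gain and 1 in BMP loss, against 13.7%, 16.7%, 11.3% and 13.4% of all probe sets. Arrays did not overlap with wild type for 3, 1, 2 and 3 of the 12, against 21.3%, 21.5%, 20.5% and 21.0% of all. These shares lie near those of the array as a whole. With 12 probe sets and so small a share of the array called, a count of 0 does not set the polarity genes apart from other genes.

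The sizes of the differences were likewise close to the array as a whole. Among the brighter 9 polarity probe sets the median absolute difference was 0.16 in EGFR gain, 0.10 in EGFR loss, 0.14 in BMP gain and 0.18 in BMP loss. Over all probe sets as bright, it was 0.14, 0.16, 0.12 and 0.13. The signed median of the 12 was 0.12 in EGFR gain, with 9 positive, and -0.09 in EGFR loss, with 9 negative, against -0.002 and -0.004 over all probe sets. In BMP gain it was 0.07 with 7 positive, and in BMP loss -0.01 with 5 positive.

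Between perturbations of the first round, which share the driver, EGFR gain was set against EGFR loss. No polarity probe set was called there, where 2.10% of all were, and 4 of 12 had an unadjusted p under 0.05, against 13.5% of all. For 5 of 12 the arrays of the groups did not overlap, against 17.1% of all probe sets. These were crb, baz, l(2)gl, par-1 151823_at and par-6, each higher in EGFR gain. Their differences were 0.31, 0.25, 0.10, 0.25 and 0.38, and the limma adjusted p ran from 0.128 for crb to 0.743 for l(2)gl. These 2 groups include the 3 arrays with high GAPDH differences. Without them, with 1 EGFR gain array set against 2 EGFR loss arrays, the same differences were 0.26, 0.34, 0.06, 0.29 and 0.44. The par-6 value of 0.44 keeps EGFR loss replicate 2, its low array. Leaving out that array alone gave 0.19 for par-6.

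The remaining comparisons also gave 0 called polarity probe sets. In EGFR gain against BMP gain, where 1.27% of all were called, 2 of 12 had an unadjusted p under 0.05 (11.3% of all), namely crb and scrib 152085_at, and only crb had arrays that did not overlap (19.1% of all). In EGFR loss against BMP gain, where 2.00% were called, par-6 alone did (15.5% of all), at -0.37 ± 0.13 (limma adjusted p = 0.188) and at -0.17 without EGFR loss replicate 2, and par-6 and baz had arrays that did not overlap (20.1% of all). When the BMP loss difference was subtracted from the BMP gain difference, each taken against its own wild type, 0.430% of all were called. There par-1 151823_at alone had an unadjusted p under 0.05 (7.97% of all), with a difference of 0.37 ± 0.13 (limma adjusted p = 0.425).

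In the order of group means within the first round EGFR gain was highest for 8 of the 12 probe sets and EGFR loss for 0. The same count was not made over all probe sets, so it does not set the polarity genes apart. All 3 par-1 probe sets are among the 8, and some leads were small. For l(2)gl the mean was 7.26 against 7.25 in BMP gain, and for scrib 152085_at 4.92 against 4.87 in wild type A. The lowest mean belonged to EGFR loss for 4, BMP gain for 3, wild type A for 3 and EGFR gain for 2. All 6 pairs of first-round groups were tested and none was called for any polarity probe set, so no neighbours in these orders differed past the threshold.

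Genes that work beside the polarity proteins were read from 6 lists with 47 probe sets of 30 genes. Of the 13 probe sets of Crumbs complex partners and regulators (sdt, Patj, veli, kst, yrt, Moe and cno), 0 were called against wild type in any perturbation. The same held for the 6 probe sets of Par complex partners (14-3-3zeta, insc, pins and mira), the 4 of lateral membrane and septate junction genes (beta-Spec, cora, Nrx-IV and Nrg), the 7 of adherens junction genes (shg, alpha-Cat, p120ctn and ed) and the 7 of cortical actomyosin genes (Rok and cv-c). In EGFR gain the medians of these lists were 0.18, 0.01, 0.38, -0.14 and 0.16, against -0.002 over all probe sets. In EGFR loss, BMP gain and BMP loss they ran from -0.17 to 0.15, against -0.004, 0.000 and 0.002 over all. Only 7 of the 13 Crumbs, 4 of the 6 Par and 1 of the 7 actomyosin probe sets reached the median of all values. Some large differences among them went uncalled. In EGFR gain 1 cv-c probe set differed by 2.33 ± 0.74 (limma adjusted p = 0.139), the others by -0.89 to 0.71. In EGFR loss 1 sdt probe set differed by 2.01 (0.194), the others by -0.99 to 0.54. There 1 mira probe set differed by 1.70 (0.0589), the other by 0.55. Smaller differences with a small SE also came near the threshold. These were Nrg at 0.48 ± 0.13 and Patj at 0.43 ± 0.11 in EGFR gain, and shg at -0.48 ± 0.13 in BMP loss (limma adjusted p of 0.0656, 0.0688 and 0.0719). Of all probe sets only 2.29% to 3.17% were called against wild type, so counts of 0 do not set such short lists apart from other genes. The lists lack 11 genes that were not named on the array here, among them arm, Cdc42, Rho1, zip and Lkb1.

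Calls against wild type came from the basal side, in the list of matrix components and their receptors, where 2 of 10 probe sets rose and 1 fell in EGFR gain, 1 rose in EGFR loss, 2 rose in BMP gain and 1 rose in BMP loss. Of all probe sets 2.81%, 3.17%, 2.39% and 2.29% were called in these groups. The list was chosen with earlier results of these data known, so its calls beside these shares are not independent support. The medians of this list were 0.35, 0.20, 0.51 and 0.09, against -0.002, -0.004, 0.000 and 0.002 over all probe sets. The integrin beta subunit gene mys, whose product holds the basal surface to the matrix, read 7.33, 7.27 and 7.39 in EGFR gain, 7.05, 7.08 and 7.07 in EGFR loss, 7.21, 7.22 and 7.25 in BMP gain, and 6.47, 6.57 and 6.52 in wild type A. It read 7.04, 7.21 and 7.23 in BMP loss, against 6.33, 6.22 and 6.37 in wild type B. No perturbed array overlapped with wild type, and mys rose by 0.81 ± 0.07, 0.55 ± 0.07, 0.71 ± 0.07 and 0.86 ± 0.07 in EGFR gain, EGFR loss, BMP gain and BMP loss (limma adjusted p of 2.69e-05, 0.00068, 8.07e-05 and 1.55e-05). All 4 perturbed groups carry CY2-GAL4 and the OreR wild types do not, so driver and strain cannot be told apart from signalling here. With only the 6 arrays of the comparison in the fit, the EGFR loss and BMP loss values of mys missed the threshold (0.162 and 0.0547). Without EGFR gain replicates 1 and 3 and EGFR loss replicate 3, mys passed in all 4 perturbations (highest adjusted p of 0.00821).

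The laminin gene LanA, which codes for a subunit of the basement membrane, read 4.97, 4.82 and 4.86 in EGFR gain, 4.24, 4.38 and 4.51 in EGFR loss, 4.52, 4.48 and 4.74 in BMP gain, and 4.05, 3.88 and 3.75 in wild type A. It rose by 0.99 ± 0.13 in EGFR gain (limma adjusted p = 0.000939) and by 0.69 ± 0.13 in BMP gain (0.011), and the EGFR loss difference of 0.49 did not pass (0.065). The BMP gain call was lost without wild type A replicate 3 or BMP gain replicate 3 (highest adjusted p of 0.0658) and in the fit of its 6 arrays alone (0.111). The EGFR gain call was lost in the fit of its 6 arrays alone (0.0515). It was also lost without EGFR gain replicates 1 and 3 and EGFR loss replicate 3 (0.0591), where 1 EGFR gain array was left and the difference was 0.93. The integrin alpha subunit gene mew read 4.38, 4.33 and 4.23 in EGFR gain, against 5.10, 4.85 and 4.73 in wild type A, and fell by 0.58 on the log2 scale (limma adjusted p = 0.0323). That call ended without wild type A replicate 1 or 2 or any single EGFR gain replicate (highest adjusted p of 0.119), and in the fit of its 6 arrays alone (0.184). It ended too without the 3 arrays of high GAPDH difference (0.299), where the difference was -0.56 with 1 EGFR gain array left.

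**Figure D4:**
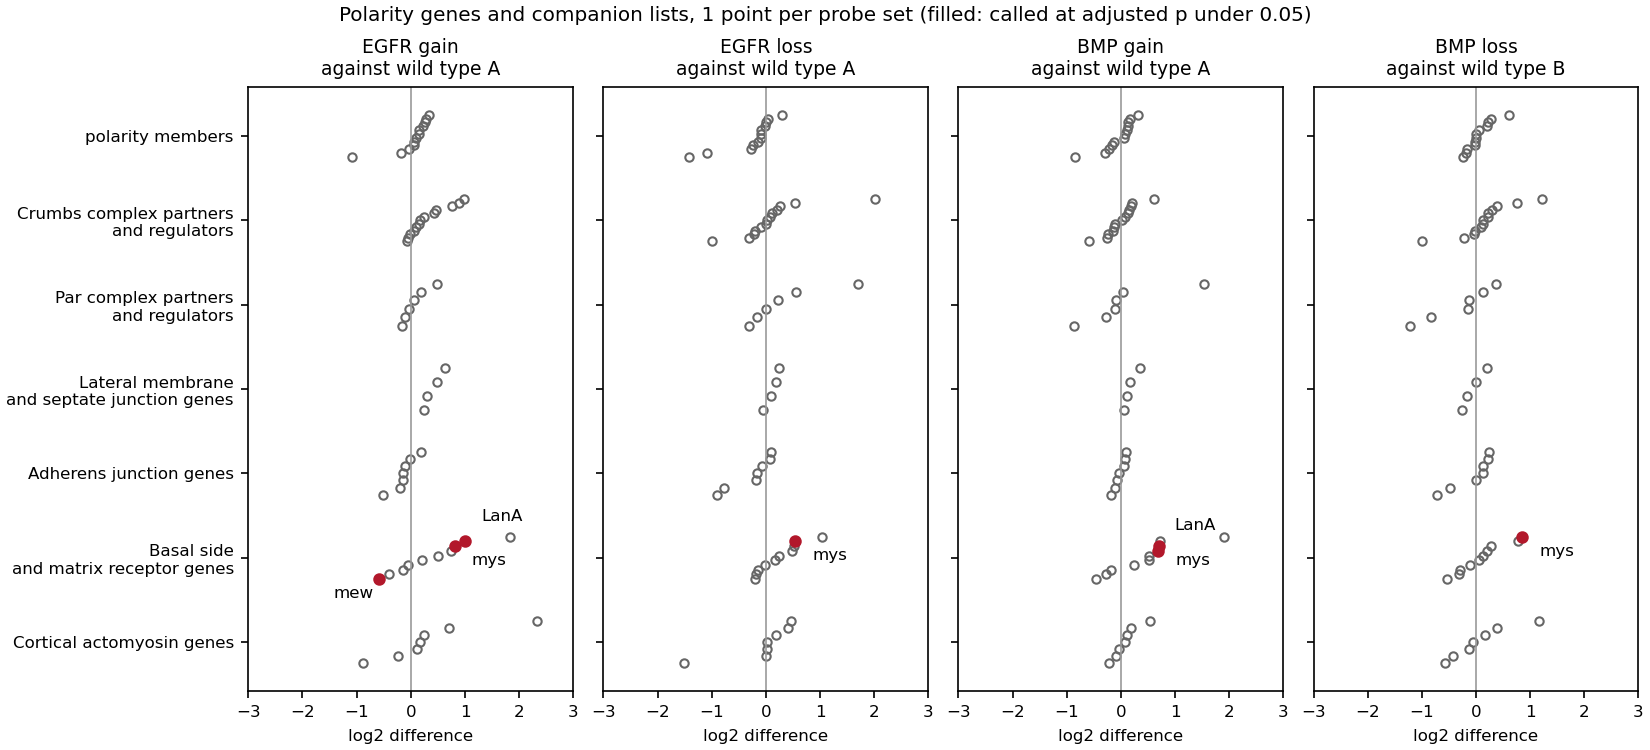
Log2 difference from the wild type of the same round (horizontal axis) for the polarity probe sets and 6 lists of companion genes (rows), 1 panel per perturbation and 1 point per probe set. Filled points were called at an adjusted p under 0.05, all of them mys, LanA or mew of the basal list, while the 12 polarity points are open in every panel.

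The bright par-1 probe sets and mys were also set on 1 scale. The par-1 141645_at difference in EGFR gain, 0.34, lay close to the 0.41 that would have been called. Relative to the wild type mean of its round, par-1 141645_at ran from 0.16 to 0.45 over the 9 perturbed arrays of the first round, and the wild type A arrays themselves from -0.15 to 0.20. For mys the same arrays ran from 0.53 to 0.87, against -0.05 to 0.05 in wild type A.

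**Figure D5:**
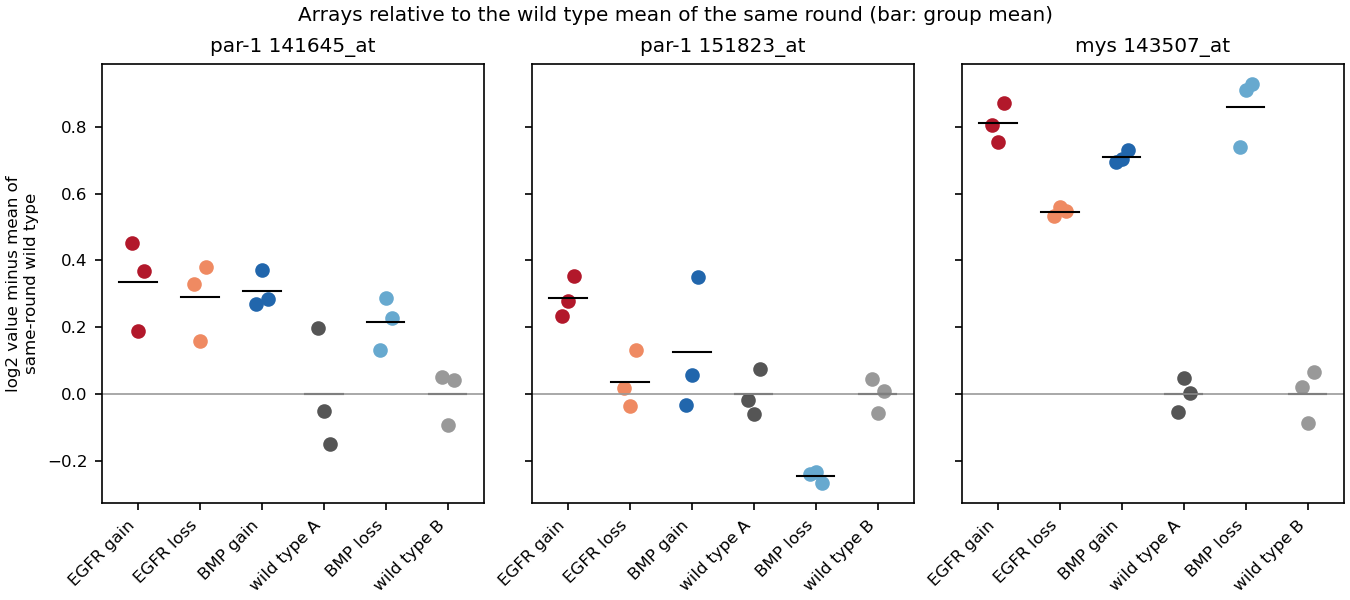
Log2 value of each array minus the mean of the wild type of its round (vertical axis) for par-1 141645_at, par-1 151823_at and mys, by group along the horizontal axis, with a bar for the group mean. The perturbed arrays of mys stand 0.53 or more above wild type, those of par-1 141645_at overlap with wild type A in both EGFR groups, and those of par-1 151823_at in BMP loss lie at about -0.24.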

How the data were processed

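RNA was measured on 18 Affymetrix arrays of the first Drosophila design, 3 for each of 6 groups taken from the titles. The authors deposited log2 values of 14010 probe sets, made with the affy package per the submitters' processing notes, with no version. No background correction, summary method or genome build is given in the sources used here. Base 2 is read from the data, since the highest value, 13.3, is 9860 as a power of 2 and 578050 as a power of e. Array medians agree within a round and differ between rounds, so no further normalization was applied.

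Affymetrix controls (44) were left out. Of the remaining 13966 probe sets, 12443 have 1 gene in the platform annotation, 327 several and 1196 none. Names were updated through a RefSeq gene table by gene number (12394), symbol (4) or synonym (38), and 7 kept the older name. Several probe sets of a gene were kept apart. Limma 3.58.1 in R 4.3.3 fitted 6 group means over all arrays (12 residual degrees of freedom, 13.3 after moderation), two-sided, with Benjamini-Hochberg adjustment over all 13966 and calls at 0.05. Differences are on the log2 scale with the first-named group minus the second. Intervals cover 95%. The number of arrays limits the precision. The fit was tested on simulated data.

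All polarity probe sets are named, with up to 4 called probe sets of each companion list a comparison. The genes nearest in pattern were to be named for any polarity probe set called against wild type, and there was none. Members and lists were chosen with earlier results of these data known. Alternatives were a fit of only the compared arrays, trended robust moderation, weighting of arrays, leaving out dim probe sets, quantile normalization within a round, centring on the median, a replicate block and omission of each replicate in turn. Those with arrays of doubtful RNA quality left out, and the average over the 4 perturbations, were added after seeing the data. No probe or promoter sequences were used here.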

Additional observations from a re-analysis of the deposited data

Results flagged for a closer look

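No polarity probe set met a rule for a closer look. The following companion genes differed between perturbed groups by a test of the difference itself. The alpha subunit gene mew was lower in EGFR gain than in BMP gain by a difference of -1.09 ± 0.13 (limma adjusted p = 0.000794), with 4.38, 4.33 and 4.23 in EGFR gain, against 5.27, 5.47 and 5.47 in BMP gain. Without EGFR gain replicates 1 and 3 and EGFR loss replicate 3 the difference was -1.07 with 1 EGFR gain array left (0.0574). It was also lower in EGFR gain than in EGFR loss, at -0.57 ± 0.13 (0.0427), a call that ended when any 1 of the 6 arrays was left out (highest adjusted p of 0.132) and in a fit of those 6 arrays alone (0.27). Patj, a scaffold of the Crumbs complex, was higher in EGFR gain than in BMP gain by 0.54 ± 0.11 (limma adjusted p = 0.0348), with 6.87, 6.32 and 6.62 in EGFR gain, against 5.99, 6.13 and 6.07 in BMP gain. That call ended without EGFR gain replicate 1 or 3 or any BMP gain replicate (highest adjusted p of 0.129) and in a fit of those 6 arrays alone (0.405), and the difference was 0.25 without EGFR gain replicates 1 and 3 and EGFR loss replicate 3.

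The adaptor gene mira was higher in EGFR loss than in BMP gain by 2.56 ± 0.44 on 1 of its 2 probe sets (limma adjusted p = 0.00843), with 4.38, 3.29 and 3.85 in EGFR loss, against 1.27, 1.38 and 1.18 in BMP gain. A fit of those 6 arrays alone did not call it (0.0798). This probe set was dim, with its highest group mean, 3.84 in EGFR loss, under the median of all values, 4.33. Its wild type A arrays ran from 1.54 to 3.27. The other mira probe set had the opposite sign in this comparison and did not pass, at -0.98 ± 0.67 (limma adjusted p = 0.532). LanA differed between the BMP responses by 1.21 ± 0.18 (limma adjusted p = 0.00734). It was 0.69 above wild type A in BMP gain and -0.53 from wild type B in BMP loss, and the BMP loss difference alone did not pass (0.056).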

How the results depend on the processing

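The counts of called polarity probe sets, 0 in each of the 8 comparisons, became 1 under a few alternatives. In EGFR gain against wild type A the count was 1, for par-1 141645_at, with array weights and with only probe sets that reach the table median. It ranged from 0 to 1 when single replicates were left out, reaching 1 without wild type A replicate 1. In BMP gain against wild type A it was 1, again par-1 141645_at, with array weights. In EGFR gain against EGFR loss it was 1, for crb, with only probe sets that reach the median. In EGFR gain against BMP gain it was 1, for crb, with an intensity trend and robust moderation, with array weights, and with only probe sets that reach the median. The filter tests 7568 probe sets in place of 13966, 9 of them polarity probe sets. Except for the left-out replicate, these settings also called more of the array. In EGFR gain against wild type A, weights and filter called 530 and 632 of all, against 392, and the left-out replicate 280. Weights called 578 in BMP gain, against 334, and the filter 514 in EGFR gain against EGFR loss, against 293. In EGFR gain against BMP gain trend, weights and filter called 281, 257 and 304, against 178. Of 1452 polarity values under alternatives to these comparisons, 8 were called, 1361 kept their sign uncalled and 83 changed sign uncalled. With the replicate block the count was 0 in every comparison, and the average of par-1 141645_at over the 4 perturbations missed the threshold (0.0662). Deviations of same-numbered arrays correlated between -0.02 and 0.09, highest for replicate 3 of EGFR gain and EGFR loss. Such low values cannot decide whether same-numbered arrays shared a step of their handling. Over all probe sets the block gave 241 calls in EGFR gain in place of 392. In EGFR gain, EGFR loss, BMP gain and BMP loss the fit of only the 6 arrays compared called 62, 28, 95 and 55 of all probe sets, against 392, 443, 334 and 320. Where 3 arrays with doubtful RNA quality were left out, EGFR gain kept 1 array, which is assumed to vary like the other groups. A large spread between arrays limited what could be called for dlg1, par-1 147500_at and scrib 152085_at, of which the last was not dim.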

Other observations

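On each array the 2 bright par-1 probe sets can be read against each other, but this reading itself differed between the hybridization rounds. The mean of 141645_at minus 151823_at was -0.21 in wild type A and 0.43 in wild type B, which are both OreR. The value of 141645_at minus that of 151823_at was 0.80, 0.95 and 0.93 in BMP loss, against 0.44, 0.40 and 0.47 in wild type B. These arrays did not overlap. The shift of 0.46 had an exact two-sided permutation p of 0.1, the smallest that 3 against 3 arrays allow, and 0.4 after Benjamini-Hochberg adjustment over the 4 perturbations. The shifts were 0.05 in EGFR gain (exact permutation p = 0.7), 0.25 in EGFR loss (0.2) and 0.18 in BMP gain (0.3). This reading was chosen after the values had been seen, and no shift passed.

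In the average over the 4 perturbations, 4 of the 10 probe sets of matrix components and receptors rose and 1 fell, where 4.85% of all probe sets were called. Both this list and this average were chosen with results of these data known. The gene mys rose by 0.73 ± 0.05 (limma adjusted p = 6.57e-07). The collagen IV genes vkg and Col4a1 rose by 1.24 ± 0.32 (0.0419) and 0.51 ± 0.13 (0.0404), LanA rose by 0.41 ± 0.09 (0.013), and the matrix receptor gene Dg fell by 0.34 on the log2 scale (0.0184). Not all of these averages were common to the 4 perturbations. In BMP loss alone the differences were 0.21 for this vkg probe set, 0.06 for Col4a1 and -0.53 for LanA, against 0.86 for mys and -0.30 for Dg. The EGFR gain, EGFR loss and BMP gain differences share the wild type A arrays. Leaving out 1 array ended the vkg call in 14 of 18 cases and the Col4a1 call in 13 of 18, the LanA call without wild type A replicate 2 or 3, and the Dg call without wild type A replicate 1 or 3. Wild type A replicate 3, at 1.57 against 3.83 and 3.70 for the other wild type A arrays, carried much of the vkg average, which was 0.70 without it (0.147). Without EGFR gain replicates 1 and 3 and EGFR loss replicate 3 the averages were 1.22 for vkg, 0.49 for Col4a1, 0.38 for LanA and -0.31 for Dg, and none of the 4 passed (lowest adjusted p of 0.0589). The second vkg probe set differed from wild type by -0.14, -0.20, -0.18 and 0.13 in EGFR gain, EGFR loss, BMP gain and BMP loss and did not share the direction of the first.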
